A study of Mus musculus with 12 samples.

Results

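*Rgcc* and *Gng2* were 2 of the 18926 genes in the tables of mouse gastric cancer cells studied here, and were found by their gene symbols in all 12 libraries. Both were chosen by their large rise of mRNA over control in libraries with little *Nf2* mRNA, so those differences describe the choice and are given without a test. Total RNA was sequenced from tumorspheres of the S1 line, 3 libraries for each of 4 groups: control, KO of *Nf2*, KO of *Rasa1*, and KO of both. S1 is a gastric cancer (GC) line from a ChetPS mouse, which carries 1 floxed allele of *Cdh1* and only floxed alleles of *Trp53* and *Smad4*, a background that all groups share. The sample labels call the cells monolayer, while the treatment text and the study describe spheres grown in low attachment plates. Knockouts were made with constitutive Cas9 and lentiviral guides, as pools of Cas9-active clones. Control cells carried a non-targeting guide or an empty guide backbone, and the labels do not say which. The study describes the libraries of a group as technical replicates, and the labels do not tie them to separate cultures. SDs, SEs and p-values therefore measure the spread between libraries, which cannot be read as the spread between cultures.

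The groups follow the sample labels, but the tables of the samples labelled *Rasa1* KO carry the name of the double KO, and those labelled double KO carry the name of *Rasa1* KO. They are therefore called the labelled *Rasa1*-KO and labelled double-KO libraries. *Nf2* was at 55.4, 58.1 and 61.0 CPM (read counts scaled by library size) in control, at 13.2 to 14.3 in *Nf2*-KO, at 11.6 to 12.1 in labelled *Rasa1*-KO and at 56.4 to 62.6 in labelled double-KO libraries. *Rasa1* was at 60.5 to 78.5 CPM in control, at 97.2 to 101.1 in *Nf2*-KO, at 30.4 to 34.5 in labelled *Rasa1*-KO and at 17.7 to 23.3 in labelled double-KO libraries. Low *Nf2* mRNA thus occurred in the *Nf2*-KO and labelled *Rasa1*-KO libraries, and the *Nf2* level of the labelled double-KO libraries overlapped that of control, which goes against their label. *Rasa1* mRNA was below every control library in both labelled groups, so labelled *Rasa1*-KO libraries were low in both knocked-out genes. The mRNA levels thus fit the table names: double KO for labelled *Rasa1*-KO libraries and *Rasa1* KO for labelled double-KO libraries. Total counts were between 43818139 and 96674463, and the control group ranged from 43818139 in replicate 2 to 95340850 in the library without a number in its label. Markers of the epithelium were abundant, with summed TPM (a level scaled by transcript length and library size) of 3983 to 5518 for 6 of 7 listed genes in all libraries.

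RGCC, the regulator of cell cycle, is a small protein, also known as response gene to complement, which binds CDK1 and is induced by TGF-beta in several cell types. GNG2 is a gamma subunit of heterotrimeric G proteins: it pairs with a beta subunit, is anchored to the membrane by a lipid group, and the beta-gamma dimer passes signals from G protein-coupled receptors to effectors such as phospholipase C beta, PI3 kinase gamma and adenylyl cyclases. NF2 (merlin) acts upstream of the Hippo kinases, which restrain the coactivator YAP and its DNA-binding partners, the TEAD factors. RASA1 is a GTPase-activating protein that switches Ras off.

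Both genes lie on the minus strand of chromosome 14 (RefSeq, GRCm38.p6), far apart from each other: *Rgcc* (gene ID 66214) at chr14:79288750-79301635 and *Gng2* (gene ID 14702) at chr14:19872558-19977825. *Rgcc* had 1 RefSeq transcript in the tables and 5 exons in GENCODE, and *Gng2* had 7 RefSeq transcripts. The 250 bases before the start of each gene, from RefSeq, are shown because both genes were high in the same libraries. They are written 5′ to 3′ on the minus strand, and capitals mark the letters TATAA or CCGCCC on either strand (GGGCGG is CCGCCC read on the other strand).
Rgcc, chr14:79301636-79301885: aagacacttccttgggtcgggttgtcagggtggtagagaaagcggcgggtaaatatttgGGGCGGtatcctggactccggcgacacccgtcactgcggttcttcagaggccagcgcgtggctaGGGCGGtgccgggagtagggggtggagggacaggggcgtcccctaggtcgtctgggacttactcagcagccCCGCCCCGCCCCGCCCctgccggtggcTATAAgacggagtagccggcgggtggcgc
Gng2, chr14:19976694-19976943: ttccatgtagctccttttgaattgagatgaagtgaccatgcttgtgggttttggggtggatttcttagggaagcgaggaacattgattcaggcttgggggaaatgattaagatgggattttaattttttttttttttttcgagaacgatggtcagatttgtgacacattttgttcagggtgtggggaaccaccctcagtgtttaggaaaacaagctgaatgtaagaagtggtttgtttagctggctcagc
The *Rgcc* window held TATAA once, 29 bases before the start, and CCGCCC 5 times, 3 of them in a row with shared end bases. The *Gng2* window held neither. Among 27025 mouse windows of the same length, TATAA was found in 23.5% and CCGCCC in 32.9%. GC content was 66.8% for *Rgcc* and 41.2% for *Gng2*, against a median of 52.0% over all windows, and CpG dinucleotides numbered 22 and 3, against a median of 6. The core of the TEAD motif, GGAATG, was in 12.6% of all windows and the AP-1 motif TGACTCA in 4.43%, and neither was in the window of *Rgcc* or *Gng2* on either strand. The start used for *Gng2* was 1132 bases inside the gene's outermost end, so other transcripts start upstream of it, and counts per gene do not say which start was used.

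*Rgcc* mRNA was at most 0.816 CPM in control and labelled double-KO libraries and at least 11.7 CPM in both groups with low *Nf2* mRNA. The control libraries had 10 reads in the unnumbered library, 33 in replicate 1 and 39 in replicate 2, which is 0.106, 0.449 and 0.774 CPM. The *Nf2*-KO libraries had 993, 1300 and 1241 reads, or 11.7, 14.8 and 14.4 CPM. The labelled *Rasa1*-KO libraries had 1220, 1113 and 1092 reads, or 15.3, 13.5 and 14.01 CPM. Every library of these 2 groups was above every control library, and the 2 groups overlapped. The labelled double-KO libraries had 52, 36 and 65 reads, or 0.569, 0.482 and 0.816 CPM, within or just above the range of control. By mean, labelled *Rasa1*-KO (14.3 ± 0.920 CPM, SD, n = 3) was followed by *Nf2*-KO (13.6 ± 1.71), labelled double-KO (0.622 ± 0.173) and control (0.443 ± 0.334), and neither the upper pair nor the lower pair of groups was separated beyond its spread.

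*Gng2* was low in the same libraries as *Rgcc*, but its 2 high groups were at different levels. The control libraries had 14 reads in the unnumbered library and 19 in each numbered one, or 0.149, 0.259 and 0.377 CPM. The *Nf2*-KO libraries had 1171, 1431 and 1367 reads, or 13.8, 16.3 and 15.9 CPM. The labelled *Rasa1*-KO libraries had 578, 544 and 494 reads, or 7.26, 6.62 and 6.34 CPM. All of these were above control, and the *Nf2*-KO libraries were above all labelled *Rasa1*-KO libraries. The labelled double-KO libraries had 6, 7 and 12 reads, or 0.0656, 0.0937 and 0.151 CPM, so that only replicate 3 reached the lowest control value. For 6 reads, counting error alone gives a 95% interval of 2.20 to 13.1 reads (exact Poisson), and for 19 reads 11.4 to 29.7. The order of the means was *Nf2*-KO (15.3 ± 1.36 CPM, SD, n = 3), labelled *Rasa1*-KO (6.74 ± 0.470), control (0.262 ± 0.114) and labelled double-KO (0.103 ± 0.0433).

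**Figure D1:**
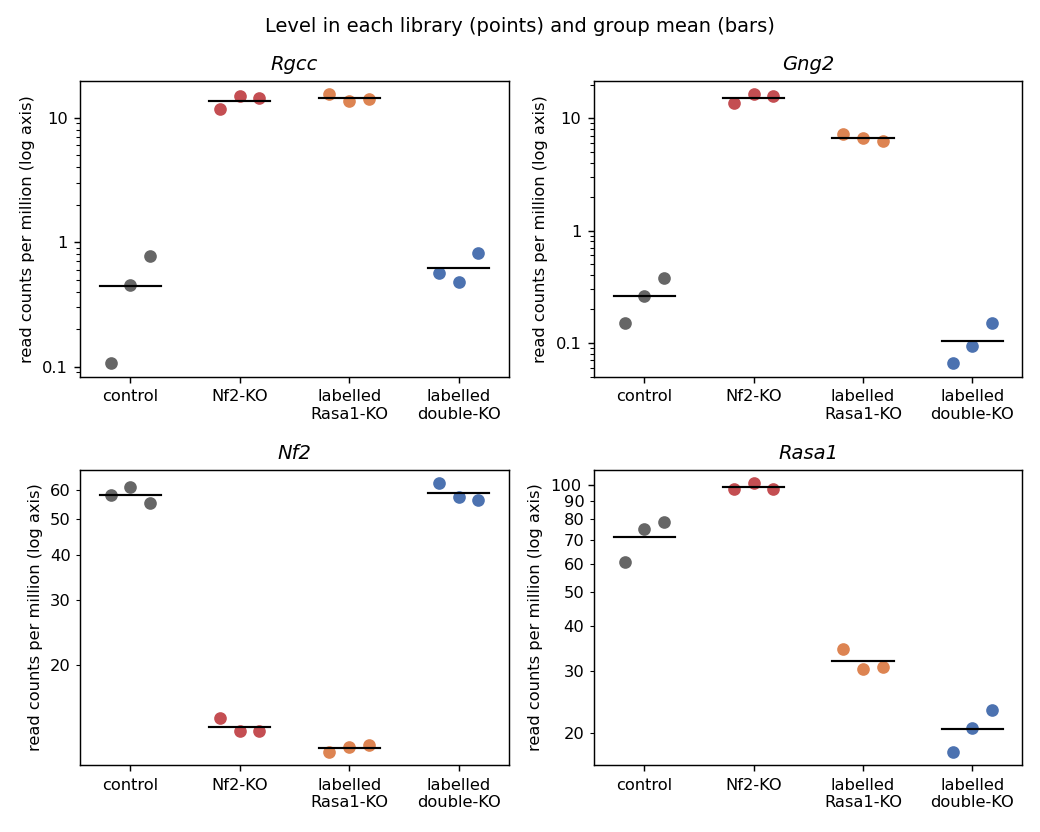
CPM on a log axis for *Rgcc*, *Gng2*, *Nf2* and *Rasa1* in each library (points) of the 4 groups, with bars at the group means. *Rgcc* and *Gng2* are high where *Nf2* is low, in *Nf2*-KO and labelled *Rasa1*-KO libraries, and *Gng2* is lower in labelled *Rasa1*-KO (6.34 to 7.26 CPM) than in *Nf2*-KO (13.8 to 16.3 CPM).

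Per length of transcript, *Rgcc* was the more abundant of the pair. Its mean TPM was 19.6 in *Nf2*-KO, 16.9 in labelled *Rasa1*-KO, 0.851 in labelled double-KO and 0.813 in control libraries, which put it above 76.2%, 77.1%, 30.4% and 27.4% of the genes. The mean TPM of *Gng2* was 5.31, 1.93, 0.0331 and 0.108 in the same order, above 51.6%, 40.9%, 4.01% and 5.89% of the genes. The ratio of *Rgcc* to *Gng2* in TPM was 3.53 to 3.79 in *Nf2*-KO libraries and 8.44 to 9.11 in labelled *Rasa1*-KO libraries, which did not overlap. It was 3.08 to 8.76 in control and 22.5 to 39.2 in labelled double-KO libraries, where *Gng2* had few reads. These are bulk libraries, in which fewer cells of a type and less RNA per cell cannot be told apart.

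The fitted changes placed both genes among the steepest rises of the 18053 genes tested. No gene analysed had a count of 0 in any library, so genes without reads in control could not be ranked. In *Nf2*-KO against control the log2 fold change was 5.93 ± 0.31 (SE) for *Gng2*, the 3rd highest, and 5.03 ± 0.48 for *Rgcc*, the 7th. In labelled *Rasa1*-KO against control it was 5.10 ± 0.48 for *Rgcc*, the 3rd highest, and 4.75 ± 0.30 for *Gng2*, the 5th. These contrasts selected the genes and carry no test. Of all genes, 20.6% were called higher and 22.2% lower in *Nf2*-KO against control, and 19.7% and 22.2% in labelled *Rasa1*-KO against control (edgeR quasi-likelihood, adjusted p under 0.05). Leaving out the unnumbered control library gave 4.52 for *Rgcc* and 5.62 for *Gng2* in *Nf2*-KO, and leaving out control replicate 2 gave 5.65 and 6.24.

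The labelled double-KO libraries, with *Nf2* mRNA at the control level and low *Rasa1* mRNA, were then compared with control. This contrast leaves out the libraries in which the genes were high, which entered only the estimate of spread. It shares the control libraries with the contrasts that selected the genes. Low control values were part of that choice, so the differences and p-values of this contrast are not free of it. *Rgcc* was 0.58 log2 units above control (SE 0.47, 95% interval -0.44 to 1.61), which did not pass the test (edgeR adjusted p = 0.52). *Gng2* was at -1.28 (SE 0.36, 95% interval -2.07 to -0.48), which was not called either (edgeR adjusted p = 0.061). In all genes, 4.0% were called higher and 2.46% lower in this comparison. The unnumbered control library bears on the *Gng2* value: without it the difference was -1.59, with an edgeR adjusted p = 0.0048. It was also called by DESeq2, at -1.25 with an adjusted p = 0.017. The settings tried gave adjusted p from 0.0048 to 0.51. Set against the groups with low *Nf2* mRNA, and as a description, *Rgcc* in labelled double-KO libraries was at -4.45 log2 units from *Nf2*-KO and -4.52 from labelled *Rasa1*-KO, and *Gng2* at -7.21 and -6.02.

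The groups with low *Nf2* mRNA were also set against each other. The high values of both groups took part in the choice of the genes, so the differences between them are a description, with no test. *Rgcc* had a log2 difference of 0.07 between labelled *Rasa1*-KO and *Nf2*-KO (SE 0.38, 95% interval -0.76 to 0.89). *Gng2* was lower in labelled *Rasa1*-KO by a log2 difference of -1.18 (SE 0.24, 95% interval -1.70 to -0.67). All 3 labelled *Rasa1*-KO libraries were below all 3 *Nf2*-KO libraries. In this comparison 1.92% of genes were called higher and 1.74% lower. With any 1 of these 6 libraries left out the difference of *Gng2* was between -1.26 and -1.14. The *Nf2* level itself differed by -0.19 (SE 0.09, edgeR adjusted p = 0.31) between these groups, and *Rasa1* by -1.63 (SE 0.13, edgeR adjusted p = 0.00015).

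**Figure D2:**
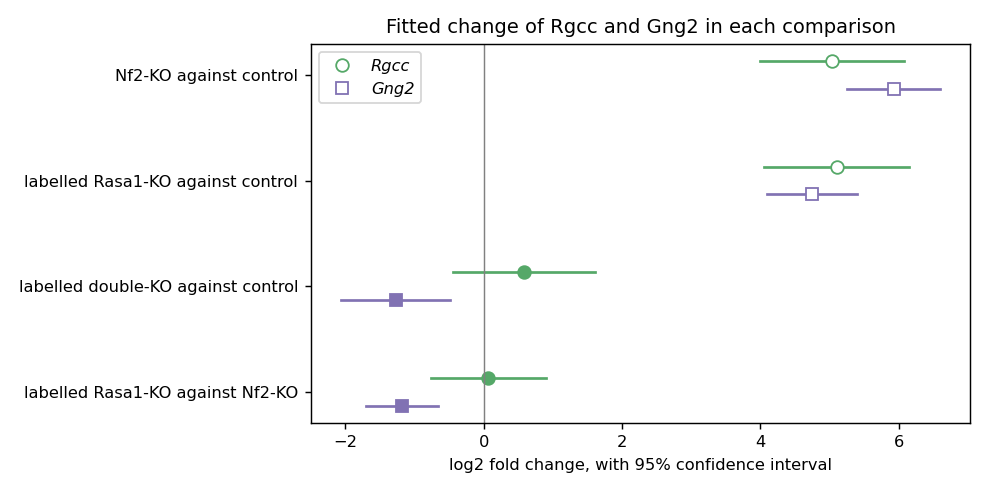
Log2 fold change (horizontal axis) of *Rgcc* (circles) and *Gng2* (squares) with 95% confidence intervals in 4 comparisons. Open symbols mark the contrasts with control that selected the genes, and the high values of both groups in labelled *Rasa1*-KO against *Nf2*-KO took part in that choice too. Values at the open symbols run from 4.75 to 5.93, while in labelled *Rasa1*-KO against *Nf2*-KO *Rgcc* lies at 0.07 and *Gng2* at -1.18.

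Of 11 further G protein gamma subunit genes listed, 6 were analysed. In *Nf2*-KO against control 2 rose and 2 fell, which is too few genes to set apart from the 20.6% and 22.2% of all genes called there: *Gng10* rose by 1.83 log2 units (SE 0.16, edgeR adjusted p = 5.3e-06) and *Gngt2* by 1.12, while *Gng7* (-1.68) and *Gng12* (-1.08) fell. In labelled *Rasa1*-KO, where 19.7% of all genes were called higher and 22.2% lower, 3 rose, *Gng10* (1.56), *Gngt2* (1.71) and *Gng11* (1.14), and *Gng7* (-1.36) and *Gng12* (-0.70) fell. *Gng5*, the most abundant gamma subunit, was not called in any comparison, and none of the 6 was called in labelled double-KO against control. Of the 6, *Gng11* alone was called between labelled *Rasa1*-KO and *Nf2*-KO, higher by 1.57 (SE 0.36, edgeR adjusted p = 0.033).

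On the TPM scale, *Gng5* (206.1 ± 20.3, SD, n = 3, in *Nf2*-KO), *Gng10* (31.9 ± 2.99) and *Gng12* (26.7 ± 5.55) were all above *Gng2* (5.31 ± 0.585), *Gngt2* (3.98 ± 0.516), *Gng11* (0.878 ± 0.341) and *Gng7* (0.449 ± 0.204). In control *Gng2* was the lowest of the 7. It made up 1.78% to 2.04% of the summed gamma subunit TPM in *Nf2*-KO libraries, 0.727% to 0.799% in labelled *Rasa1*-KO, 0.0137% to 0.0412% in control and 0.00765% to 0.0168% in labelled double-KO libraries. The sum itself was 248.3 to 303.5 TPM in *Nf2*-KO and 291.7 to 434.3 in control libraries.

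The beta subunits, with which gamma subunits form dimers, included *Gnb2* (216.8 ± 9.27 TPM in control), *Gnb1* (93.3 ± 43.0), *Gnb5* (7.995 ± 1.13) and *Gnb4* (1.00 ± 0.599). Of these 4, *Gnb4* rose by 1.84 log2 units (SE 0.33, edgeR adjusted p = 0.00088), *Gnb2* by 0.57 and *Gnb5* by 0.31 in *Nf2*-KO. *Gnb4* (1.35) and *Gnb2* (0.53) rose in labelled *Rasa1*-KO, and none was called in labelled double-KO. Among 12 alpha subunits measured, 5 rose and 3 fell in *Nf2*-KO, 3 rose and 1 fell in labelled *Rasa1*-KO, and 1 rose in labelled double-KO. The largest called changes were those of *Gnaq*, the alpha subunit of the Gq class (-0.86 in *Nf2*-KO and -0.87 in labelled *Rasa1*-KO), and *Gnai1*, of the inhibitory class (-0.82 in *Nf2*-KO). *Gna13*, an alpha subunit of another class, was 0.56, 0.58 and 0.36 higher in the 3 groups. The median over the 12 was -0.16 in *Nf2*-KO, against -0.07 for all genes. Of all genes, 20.6% were called higher and 22.2% lower in *Nf2*-KO. In labelled *Rasa1*-KO these shares were 19.7% and 22.2%, and in labelled double-KO 4.0% and 2.46%.

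**Figure D3:**
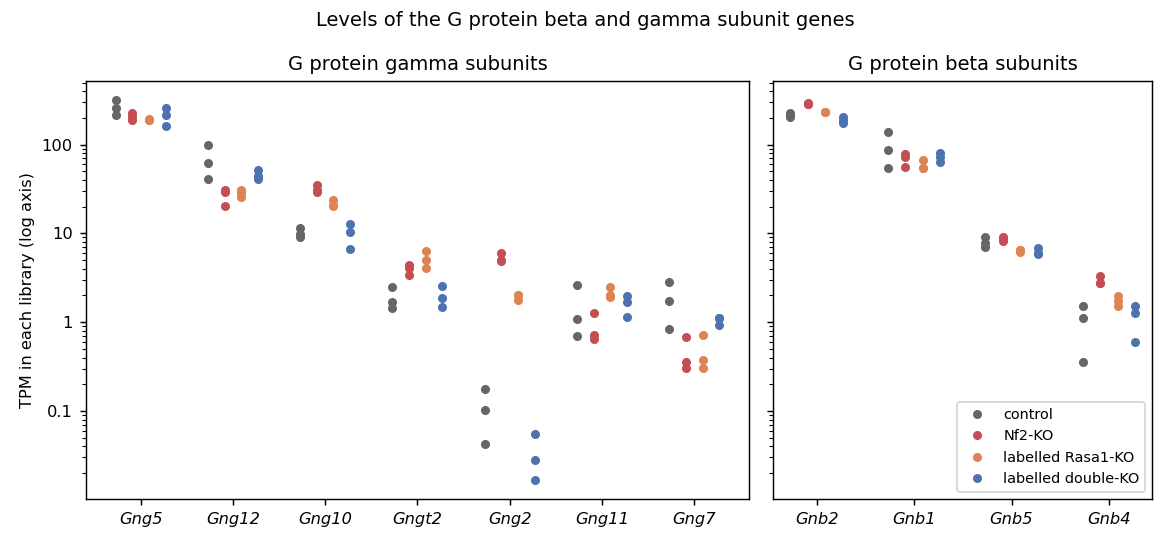
TPM on a log axis of the measured gamma subunit (left) and beta subunit genes (right), each point being a library, coloured by group. *Gng2* is the lowest gamma gene in control, between 0.0430 and 0.179 TPM, and lies between 4.89 and 5.98 TPM in *Nf2*-KO, still below *Gng5*, *Gng12* and *Gng10*.

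Of the 21 listed effectors and regulators of beta-gamma, 9 were measured. In *Nf2*-KO 1 rose and none fell, and in labelled *Rasa1*-KO 1 rose and 1 fell, beside 20.6% and 22.2%, and 19.7% and 22.2%, of all genes. *Adcy7*, an adenylyl cyclase that beta-gamma stimulates, rose by 1.67 log2 units in *Nf2*-KO (SE 0.35, edgeR adjusted p = 0.0027). *Pik3r5*, a regulatory subunit of PI3 kinase gamma, rose by 1.58 in labelled *Rasa1*-KO, and *Plcb1*, a phospholipase C, fell by 0.58 there. No effector was called in labelled double-KO against control or between labelled *Rasa1*-KO and *Nf2*-KO.

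The kinase CDK1, which RGCC is known to bind, was listed with its cyclins and other mitotic regulators. Of these 9 genes, 8 rose and none fell in *Nf2*-KO, 7 rose and none fell in labelled *Rasa1*-KO, and 3 rose in labelled double-KO, where *Rgcc* was not called. The shares of all genes called higher were 20.6%, 19.7% and 4.0% in these comparisons, and those called lower 22.2%, 22.2% and 2.46%. The median log2 fold change of the 9 genes was 1.34, 1.01 and 0.32, against -0.07, -0.08 and -0.04 over all genes. The cyclin gene *Ccnb2* had the largest value, 1.82 (SE 0.19, edgeR adjusted p = 1.4e-05) in *Nf2*-KO, 1.41 in labelled *Rasa1*-KO and 0.79 in labelled double-KO. *Ccnb1* rose by 1.58, 1.12 and 0.65, and *Ccna2* by 1.44 and 1.01 in the first 2. *Cdk1* itself rose by 1.34 in *Nf2*-KO and 1.03 in labelled *Rasa1*-KO. The phosphatase gene *Cdc25c* rose by 1.42 and 1.15. *Plk1*, a mitotic kinase, rose by 0.98, 0.40 and 0.47, and was lower by -0.58 in labelled *Rasa1*-KO than in *Nf2*-KO (SE 0.12, edgeR adjusted p = 0.025).

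*Rgcc* was named for its induction by complement, whose own genes were mostly lower where *Rgcc* was high. Of 11 measured, none rose and 9 fell in *Nf2*-KO, none rose and 10 fell in labelled *Rasa1*-KO, and 2 fell in labelled double-KO. The shares of all genes called lower were 22.2%, 22.2% and 2.46%, and those called higher 20.6%, 19.7% and 4.0%. The median of the 11 was -2.65, -2.62 and -0.60, against -0.07, -0.08 and -0.04 over all genes. *C3*, the central component, went from 1115 ± 78.6 TPM in control to 48.4 ± 8.68 in *Nf2*-KO, 36.3 ± 4.77 in labelled *Rasa1*-KO and 481.6 ± 118.9 in labelled double-KO (SD, n = 3), with log2 fold changes of -4.34, -4.50 and -0.89. *C4b* fell in the first 2 groups (-4.50 and -5.27), and *Clu*, whose product blocks the terminal complex, in all 3 (-3.60, -2.62 and -0.60). *Cd55*, whose product speeds the decay of the convertase, fell in both groups with low *Nf2* mRNA (-5.61 in *Nf2*-KO and -3.42 in labelled *Rasa1*-KO), and was higher by 2.20 in labelled *Rasa1*-KO than in *Nf2*-KO (SE 0.38, edgeR adjusted p = 0.0090). *Clu* was also higher there, by 0.97, while *C1s1* (-0.75) and *C4b* (-0.77) were lower.

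The TGF-beta list was mixed. Of 15 genes, 5 rose and 5 fell in *Nf2*-KO, 5 rose and 4 fell in labelled *Rasa1*-KO, and 3 rose and 1 fell in labelled double-KO, with medians of -0.04, -0.05 and -0.03. Among all genes, 20.6% and 22.2%, 19.7% and 22.2%, and 4.0% and 2.46% were called higher and lower in the same order. The receptor genes *Tgfbr3* and *Tgfbr2* rose by 1.39 and 1.21 in *Nf2*-KO and by 1.10 and 0.84 in labelled *Rasa1*-KO, and the inhibitory *Smad7* by 1.05, 1.15 and 0.84 in the 3 groups. *Ltbp2*, which encodes a latent TGF-beta binding protein, fell in all 3 (-1.91, -2.01 and -0.83), and the ligand gene *Tgfb3* in the first 2 (-1.86 and -1.73). None of the 15 was called between labelled *Rasa1*-KO and *Nf2*-KO.

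Over the 66 genes of these 7 lists tested, 24 rose and 19 fell in *Nf2*-KO, 21 and 18 in labelled *Rasa1*-KO, 7 and 3 in labelled double-KO, and 3 and 3 between labelled *Rasa1*-KO and *Nf2*-KO. The shares of all genes called higher and lower were 20.6% and 22.2%, 19.7% and 22.2%, 4.0% and 2.46%, and 1.92% and 1.74% in the same order. Some of these counts rested on single libraries. Without the unnumbered control library, 23 genes were called in labelled double-KO in place of 10, and without labelled double-KO replicate 2 or 3 the number was 3. Between labelled *Rasa1*-KO and *Nf2*-KO the number was 16 without the unnumbered control library, and 3 without labelled *Rasa1*-KO replicate 2, the unnumbered labelled *Rasa1*-KO library or any of the *Nf2*-KO libraries, in place of 6.

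**Figure D4:**
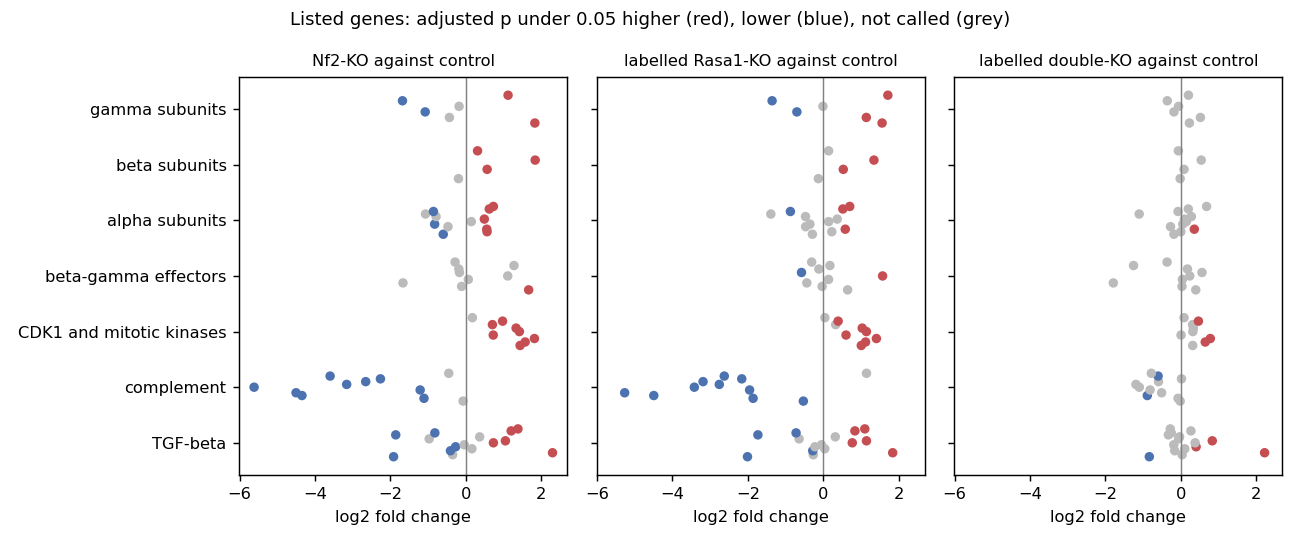
Log2 fold change (horizontal axis) of every tested gene of the 7 lists (rows) in 3 comparisons with control. Red points were called higher, blue points lower and grey points were not called. Complement genes reach -5.61 in *Nf2*-KO and none is red, while 8 of 9 CDK1 and mitotic genes are red.

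Genes whose pattern over the 12 libraries was most like that of the pair were found by the root-mean-square (RMS) difference of log2 CPM after subtracting each gene's control mean, and are given as a description. For *Rgcc* these were *Il1rl1* (RMS 0.48), *Serpinb7* (0.73), *Prune2* (0.77), *Tmeff1* (0.85) and *Stbd1* (0.86). *Il1rl1* encodes the receptor of interleukin 33, *Serpinb7* a protease inhibitor and *Stbd1* a glycogen-binding protein. For *Gng2* they were *Il1rl1* (0.88), *Podnl1* (0.89), *Pdgfra* (0.93), *Lpar4* (1.08) and *Rgcc* itself (1.11), and *Gng2* was 15th in the order from *Rgcc*. *Lpar4* encodes a G protein-coupled receptor for lysophosphatidic acid, *Pdgfra* a receptor of platelet-derived growth factor and *Podnl1* a small leucine-rich proteoglycan.

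*Il1rl1*, first for both, was at 104.4 to 111.3 CPM in *Nf2*-KO, 68.9 to 71.2 in labelled *Rasa1*-KO, 1.42 to 3.99 in control and 2.73 to 5.11 in labelled double-KO libraries, so its high groups were ordered like those of *Gng2*. *Lpar4* was at 3.89 to 4.55 CPM in *Nf2*-KO, 2.31 to 2.62 in labelled *Rasa1*-KO and no more than 0.298 in the others. *Pdgfra* was at 79.6 to 82.7, 32.2 to 39.5, 0.223 to 6.29 and 0.339 to 1.03 CPM in *Nf2*-KO, labelled *Rasa1*-KO, control and labelled double-KO libraries. Its lowest control value was in the unnumbered library, in which *Rgcc* and *Gng2* were lowest too. From *Nf2*-KO to labelled *Rasa1*-KO the fitted log2 difference, on the scale of scaled counts, was 0.07 for *Rgcc* and ran from -1.18 for *Gng2* to -0.35 for *Stbd1* in the others of this group. The mean TPM of *Rgcc* went from 19.6 to 16.9.

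**Figure D5:**
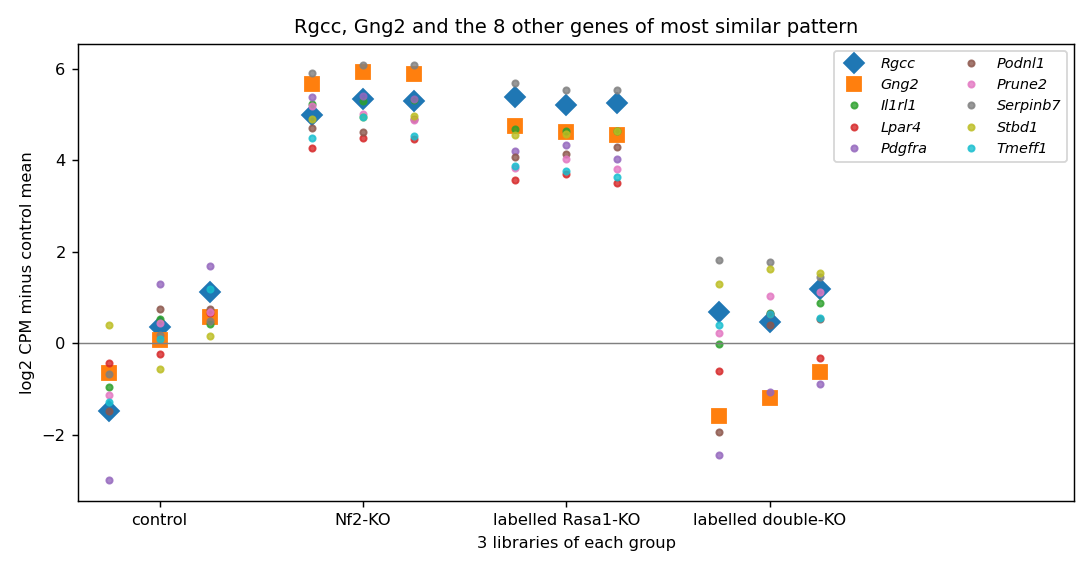
Log2 CPM minus the control mean (vertical axis) in the 3 libraries of each group for *Rgcc* (diamonds), *Gng2* (squares) and the 8 other genes of most similar pattern (dots). All lie high in *Nf2*-KO and labelled *Rasa1*-KO, and *Gng2* and *Pdgfra* lie below the control mean in every labelled double-KO library.

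No tested neighbour of either gene had a log2 fold change above 1.14 in the comparisons with control. Of the 8 tested genes within 500 kb of *Rgcc*, 1 rose and 2 fell in *Nf2*-KO, 2 rose and 1 fell in labelled *Rasa1*-KO, and none was called in labelled double-KO. Of the 624 genes of chromosome 14 tested, 18.4% rose and 23.9% fell in *Nf2*-KO and 21.8% and 19.7% in labelled *Rasa1*-KO. Distances were taken between the lowest coordinates of the genes, not between their transcription starts. *Naa16*, an auxiliary subunit of N-terminal acetyltransferase 45.8 kb away, rose by 1.00 (SE 0.16, edgeR adjusted p = 0.00047) and 1.14, and *Kbtbd7*, 137.8 kb away, was at -0.48 and -0.43. Of the 9 near *Gng2*, 1 rose and 1 fell in each of these groups: *Nid2*, a basement membrane gene 121.3 kb away, rose by 1.06 in *Nf2*-KO, *Rtraf* by 0.73 in labelled *Rasa1*-KO, and *Kcnk5* fell in both (-0.72 and -0.51). The median of the neighbours was 0.02 and 0.00 for *Rgcc* and -0.26 and -0.06 for *Gng2* in *Nf2*-KO and labelled *Rasa1*-KO. No annotated gene overlapped *Rgcc*, and a lincRNA on the other strand, *Gm48283*, overlapped the 3′ end of *Gng2*. It and a pseudogene of *Gng2* on chromosome 4, *Gng2-ps1*, were not analysed here, and reads that they share with *Gng2* cannot be separated.

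Because *Rgcc* is known in endothelium and *Gng2* in blood cells, markers of other cell types were set beside them. The summed TPM of 4 of 7 endothelial markers was 12.5 to 13.6 in *Nf2*-KO, 9.54 to 9.78 in labelled *Rasa1*-KO, 11.2 to 13.3 in labelled double-KO and 7.92 to 9.77 in control libraries, and 2 rose and 2 fell in both groups with low *Nf2* mRNA. *Pecam1* was at 0.0843 ± 0.0160 TPM in *Nf2*-KO and 0.315 ± 0.136 in control, and *Cdh5*, *Tek* and *Tie1* were not analysed here. Of 4 of 7 leukocyte markers, 2 rose in *Nf2*-KO and 1 in labelled *Rasa1*-KO, with sums of 15.2 to 17.7 and 17.6 to 20.9 TPM against 5.78 to 12.9 in control and 6.56 to 19.6 in labelled double-KO libraries. *Cd3e*, *Cd79a* and *Adgre1* were not analysed here. Over all genes, 20.6% were called higher and 22.2% lower in *Nf2*-KO, and 19.7% and 22.2% in labelled *Rasa1*-KO.

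The summed level of fibroblast markers was high in the same groups as both genes, but it was mostly that of *Col3a1*. The mean of *Col3a1* was 1555 TPM in *Nf2*-KO and 458.9 TPM in labelled *Rasa1*-KO libraries. The sum of 3 of 6 was 1541 to 1696 TPM in *Nf2*-KO, 459.9 to 512.1 in labelled *Rasa1*-KO, 28.2 to 287.6 in control and 26.8 to 71.4 in labelled double-KO libraries. *Col3a1* rose by 3.75 in *Nf2*-KO and 2.26 in labelled *Rasa1*-KO, *Pdgfra* by 4.45 and 3.28, and *Dcn* fell in both (-0.72 and -1.13). *Lum*, *Thy1* and *Postn* were not analysed here. The epithelial genes *Epcam* and *Cdh1* fell in *Nf2*-KO (-2.63 and -2.09) and in labelled *Rasa1*-KO (-1.55 and -1.57), where *Krt8*, *Krt18* and *Krt19* rose by 0.64, 0.83 and 0.70. The part of these markers in the values of *Rgcc* and *Gng2* was not tested.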

How the data were processed

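Total RNA of 12 S1 tumorsphere libraries was depleted of rRNA and sequenced as stranded paired ends. Per the study's methods and processing notes, the authors used Trimmomatic 0.38 for trimming, HISAT2 2.1.0 for alignment (build mm10), SAMtools 1.9, and StringTie 2.1.3b for the abundance of RefSeq genes. The authors deposited raw read counts per gene, and beside them FPKM and TPM, which divide by transcript length and library size. Whether strand was used in counting is not given in the sources used here. No gene in the tables has a count of 0 in any library. A further column per table was not used.

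Counts were analysed with edgeR 4.0.16 in R 4.3.3 (filterByExpr, 18053 genes kept, TMM, quasi-likelihood test, 4 groups in 1 fit, Benjamini-Hochberg over all genes). A call is an adjusted p under 0.05. CPM use TMM-scaled totals. TPM serve for levels between genes, with limma 3.58.1 on log2(TPM + 1) and log2(TPM + 0.1) as alternatives, and FPKM were not tested. Other alternatives were DESeq2 1.42.0, RLE scaling, no filter, fits of 2 groups, replicate blocks, and each library left out. Library totals were between 43818139 and 96674463 counts, intervals on read counts cover counting error only, and all library pairs of a group differed beyond sampling noise. The procedure was tested on simulated data.

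The members and lists were chosen with earlier results of these data known. Labelled *Rasa1*-KO against *Nf2*-KO was planned as a test of the members and is given for them without p-values, since both groups took part in their choice. Labelled double-KO against control is given with p-values, which are limited because the control libraries took part in the choice. Named were the members, *Nf2* and *Rasa1*, called genes of each list with the largest fold first (up to 4 per list and comparison), all beta and gamma subunits, the 5 genes of most similar pattern per member (log2 CPM with a prior count of 2), and neighbours within 500 kb by RefSeq GRCm38.p6. Lists were gamma, beta and alpha subunits, beta-gamma effectors, CDK1 and mitotic genes, complement, TGF-beta and markers of 4 cell types. The motifs TATAA and CCGCCC were chosen after the windows were seen.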

Additional observations from a re-analysis of the deposited data

Results flagged for a closer look

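The log2 fold change of *Gng2* over control was 5.93 in *Nf2*-KO and 4.75 in labelled *Rasa1*-KO, a difference of -1.18 between 2 groups under the same contrast, with all 3 labelled *Rasa1*-KO libraries below all 3 *Nf2*-KO libraries. The high values of both groups took part in the choice of *Gng2*, so this difference is a description and carries no test. The mark itself was set by an edgeR adjusted p under 0.05 in labelled *Rasa1*-KO against *Nf2*-KO. For the same reason it is no valid test of *Gng2*, nor is the lack of a mark one for *Rgcc*. The mark was kept in 15 of the 21 alternatives run. Those in which it was lost included each fit with a labelled *Rasa1*-KO library left out. Groups of 3 libraries are too small for a check of single outlying libraries.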

How the results depend on the processing

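*Rgcc* and *Gng2* stayed above control in *Nf2*-KO and labelled *Rasa1*-KO under all alternatives run, with smaller values on scales with a pseudocount: log2(TPM + 1) gave 3.58 and 3.38 for *Rgcc* and 2.51 and 1.40 for *Gng2*, and log2(TPM + 0.1) gave 4.75 and 3.33 for *Gng2*. The difference of *Rgcc* between labelled *Rasa1*-KO and *Nf2*-KO was near 0 and turned sign on these scales (-0.20 and -0.21), and ran from -0.03 to 0.13 as libraries were left out. That of *Gng2* ran from -1.26 to -1.14 as libraries were left out. Low control values took part in the choice of *Gng2*, so its p-values in labelled double-KO against control are not free of that choice. In this contrast *Gng2* was called with DESeq2 (-1.25). It ran from -1.63 to -0.95 as libraries were left out, with adjusted p between 0.0048 and 0.18 (edgeR), and 0.45 with only these 2 groups fitted. The cause was not tested. Few reads limit the values of *Gng2* where it is low.

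Counts of called genes over the whole table moved more. DESeq2 called 2094 genes in labelled double-KO against control and 1419 in labelled *Rasa1*-KO against *Nf2*-KO, where edgeR called 1166 and 661. Fits of only 2 groups called 5130 (*Nf2*-KO), 4532 (labelled *Rasa1*-KO) and 18 genes (labelled double-KO) against control, and 4527 in labelled *Rasa1*-KO against *Nf2*-KO. The study's rule, a fold of at least 3 with a raw p under 0.05, gave 2055, 1673, 367 and 232 in the same order, with 15, 13, 1 and 2 of the listed genes. With 1 library left out, labelled double-KO against control had 487 to 5477 genes and labelled *Rasa1*-KO against *Nf2*-KO 210 to 2220, the most without the unnumbered control library, and the listed genes 3 to 23 and 3 to 16. RLE scaling and no filter changed no call of either gene.

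Replicate numbers are shared between groups, but same-numbered libraries did not deviate together in every pair. Over all pairs of groups their correlation ran from -0.379 to 0.399 by the numbers of the titles. By those of the table names it ran from -0.0552 to 0.444, highest in the 2 pairs of control and labelled double-KO (0.313 and 0.444). The unnumbered control library and labelled double-KO replicate 1 both lack a number in their table names. They correlated at 0.626, above these ranges, which do not include them. With labelled double-KO replicates 2 and 3 the unnumbered control library correlated at -0.466 and -0.477. In the pairs of groups that share 3 numbers the correlation of same-numbered libraries was -0.0931 to -0.0378 (*Nf2*-KO and labelled double-KO, titles) and -0.0406 to 0.126 (*Nf2*-KO and labelled *Rasa1*-KO, table names). With the numbers of the titles as a block, *Rgcc* in labelled double-KO against control turned to -0.05. *Gng2* was called at -1.68 (edgeR adjusted p = 0.015), and 3048 genes were called there. With the numbers of the table names as a block, *Gng2* was called at -1.33 (edgeR adjusted p = 0.02). The same numbered libraries without the block, an alternative chosen after seeing the data, gave -1.59 for *Gng2* (edgeR adjusted p = 0.0079) with 4717 genes called there and 1228 in labelled *Rasa1*-KO against *Nf2*-KO, so *Gng2* was called on these libraries without the block of title numbers too. *Rgcc* was not called in labelled double-KO against control with either block. The p-values of both genes in this contrast carry the limit of the shared control libraries.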
